A study of Mus musculus with 3 samples.

Results

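Transcripts of 9 genes that help Toll-like receptors (TLRs) to bind ligand, fold, reach their compartment or signal were measured on the chromatin of mouse macrophages. They are the co-receptor genes Cd14 and Ly96, the genes of the RP105 complex Cd180 and Ly86, the chaperone genes Unc93b1 and Cnpy3, the TRIF-branch adaptor genes Ticam1 and Ticam2, and the inhibitory receptor gene Sigirr. They were chosen by gene symbol, and each symbol matched 1 of the 55536 gene IDs in the tables. The libraries are total RNA-seq, depleted of ribosomal RNA, from the chromatin fraction of macrophages grown from C57BL/6J bone marrow (primary cells, not a line). The fraction holds nascent transcripts and RNA that stays in the nucleus. The 3 libraries form 1 group, with no untreated cells beside them, so the values are levels in 1 state and show no response. All 3 cultures had received Lipid A, the lipopolysaccharide moiety that TLR4 senses, at 100 ng per ml for 12 h, followed by a washout of 12 h. They were taken at minute 0 of a second exposure to Lipid A. The 3 libraries carry 1 donor identifier, and no label says that they came from separate animals, so the spread between them may be technical.

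TLR4 binds lipopolysaccharide only together with MD-2, the protein of Ly96, and CD14 passes lipopolysaccharide to that pair. RP105, the protein of Cd180, resembles a TLR but lacks the signalling domain; it pairs with MD-1, the protein of Ly86, as TLR4 pairs with MD-2. UNC93B1 carries the nucleic acid-sensing TLRs from the endoplasmic reticulum to endosomes, and CNPY3 helps the chaperone gp96 to fold several TLRs. TRAM, the protein of Ticam2, links TLR4 to TRIF, the protein of Ticam1, on the route to type I interferon, while SIGIRR dampens signalling by interleukin-1 receptors and TLRs.

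Much of the RNA assigned to these genes was in isoforms that GENCODE M21 annotates as retained-intron transcripts, and the places where such an isoform departs from the spliced mRNA are shown for 4 genes. Each window has 15 bases on either side of an exon edge (mm10), with intron bases in capitals and exon bases in lower case. The line after it gives the same exon edge joined to its neighbouring exon in a protein-coding isoform of the gene. The windows lie at chr1:16691759-16691788 on the plus strand for Ly96, chr13:37345560-37345589 on the plus strand for Ly86, chr19:3936408-3936437 on the plus strand for Unc93b1 and chr17:46737278-46737307 on the minus strand for Cnpy3.
Ly96-203, unspliced: ttgagttcattccaaGTAAGTACAAACTTT
Ly96-201, spliced: ttgagttcattccaagaggaaacttaaaat
Ly86-202, unspliced: tctaccagagctgtgGTAAGGTCTTATGAA
Ly86-201, spliced: tctaccagagctgtgatcccttacaggatt
Unc93b1-202, unspliced: acctgtgctcatcagGTGCCAAACTTCTGT
Unc93b1-203, spliced: acctgtgctcatcaggttttttggtaccaa
Cnpy3-204, unspliced: GTGCTATCTCCACAGtgtgacgtgctggtg
Cnpy3-201, spliced: gacctcaagaagcagtgtgacgtgctggtg

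The first 3 windows cross a 5′ splice site, where the intron opens with GT, and the Cnpy3 window crosses a 3′ splice site, where the intron closes with AG. All 4 exon edges lie in coding sequence. Ly96-203 runs 174 bases into intron 2 of 4, which is 9021 bases long. Ly86-202 takes in 2498 bases of intron 1 of 4, which is 29388 bases long. Unc93b1-202 takes in 324 of the 5097 bases of intron 3 of 10. Cnpy3-204 holds 335 of the 434 bases of intron 4 of 5, so it is the only one of the 4 that covers most of its intron.

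Levels are given as TPM, an abundance corrected for length and scaled to a fixed sum per library, and each ± is an SD over 3 libraries beside their mean. In every library 8 of the 9 genes reached 1 TPM, against 46.1% of the 22028 annotated protein-coding genes. A mean of 10 TPM or more was reached by 6 of the 9, against 27.2% of protein-coding genes, and 100 TPM or more by 2, against 2.57%. The median log2(TPM + 1) of the 9 genes was 4.53, with an SD of 0.14 over the libraries, and that of all protein-coding genes was 0.94. These shares and medians are descriptions without a test, because the genes were chosen with earlier results of these data known.

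The libraries held 11958978, 17283529 and 19475027 expected counts in replicates 1, 2 and 3, from 1000, 250 and 500 ng of starting RNA, and the 9 genes took 0.110%, 0.0920% and 0.0842% of the counts that named a gene. As a check of the cell label, 8 of 8 macrophage markers reached 1 TPM in all libraries. B-cell markers matter here because B cells also express Cd180 and Ly86: 0 of 6 reached 1 TPM in any library, their summed level was 0.16, 0.30 and 1.21 TPM, and Pax5 was at 0 in replicates 1 and 2 and at 0.01 TPM in replicate 3. Neutrophil markers, 6 genes, summed to 0.71 to 0.98 TPM in the gene table, with Mpo at 0 there and at 1.95 TPM in the read-based table. Dendritic-cell markers, 5 genes, summed to 2.42 to 3.13 TPM; of these Zbtb46 alone passed 1 TPM in every library and Cd209a was at 0. Stromal markers, 8 genes, summed to 0.14, 1.55 and 528 TPM in replicates 1, 2 and 3, and all 8 were highest in replicate 3, Col1a1 at 0.01, 0.43 and 149 TPM. Replicate 3 thus stands apart in stromal RNA, and values that it moves are also given without it.

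Transcripts of the TLR4 co-receptors were modest. In replicates 1, 2 and 3 the level of Ly96 was 13.5, 14.2 and 11.1 TPM (70, 77 and 77 expected counts), with a mean of 12.9 ± 1.65 TPM (SD, n = 3). Cd14 was at 7.03, 8.78 and 12.1 TPM, from 89, 118 and 212 counts, with a mean of 9.30 ± 2.58 TPM. In the gene table Cd14 was the only one of the 9 genes that was highest in replicate 3, and its mean without that library was 7.91 TPM. In the read-based table Cnpy3 (70.4 TPM) and Sigirr (1.10 TPM) were also highest in replicate 3. The Cd14-to-Ly96 ratio of levels was 0.52, 0.62 and 1.09, so Cd14 was below Ly96 in replicates 1 and 2 and slightly above it in replicate 3. The read-based ratio was 0.21, 0.20 and 0.38, with Cd14 below Ly96 in every library. Tlr4, the receptor they serve, was at 25.9 ± 1.53 TPM, a ratio of 2.01 ± 0.16 to Ly96 and of 2.94 ± 0.86 to Cd14 (5.91 read-based), and it was higher than either of them in every library.

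The RP105 complex stood higher than the TLR4 co-receptors in every library. Cd180 was at 279, 276 and 225 TPM, from 5714, 6725 and 6613 counts, with a mean of 260.1 ± 30.1 TPM, and ranked 124 among 22028 protein-coding genes. Ly86 was at 67.6, 63.7 and 41.8 TPM, from 1667, 1906 and 1512 counts, with a mean of 57.7 ± 13.9 TPM. Both were lowest in replicate 3, and without it their means were 277 TPM for Cd180 and 65.7 TPM for Ly86. Cd180 exceeded its partner Ly86 by a ratio of 4.13, 4.33 and 5.39 in the 3 libraries, and the receptor homologue Tlr4 by a ratio of 10.7, 10.1 and 9.27. Ly86 in turn exceeded its homologue Ly96 by a ratio of 5.004, 4.48 and 3.77, which was smaller in the read-based table, at 2.51, 2.22 and 1.87. Cd180 thus had 29.9 ± 10.6 times the level of Cd14, a ratio that ranged over 39.7, 31.4 and 18.6 in replicates 1, 2 and 3. The read-based ratio was larger, at 53.9, 50.9 and 27.6.

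**Figure D1:**
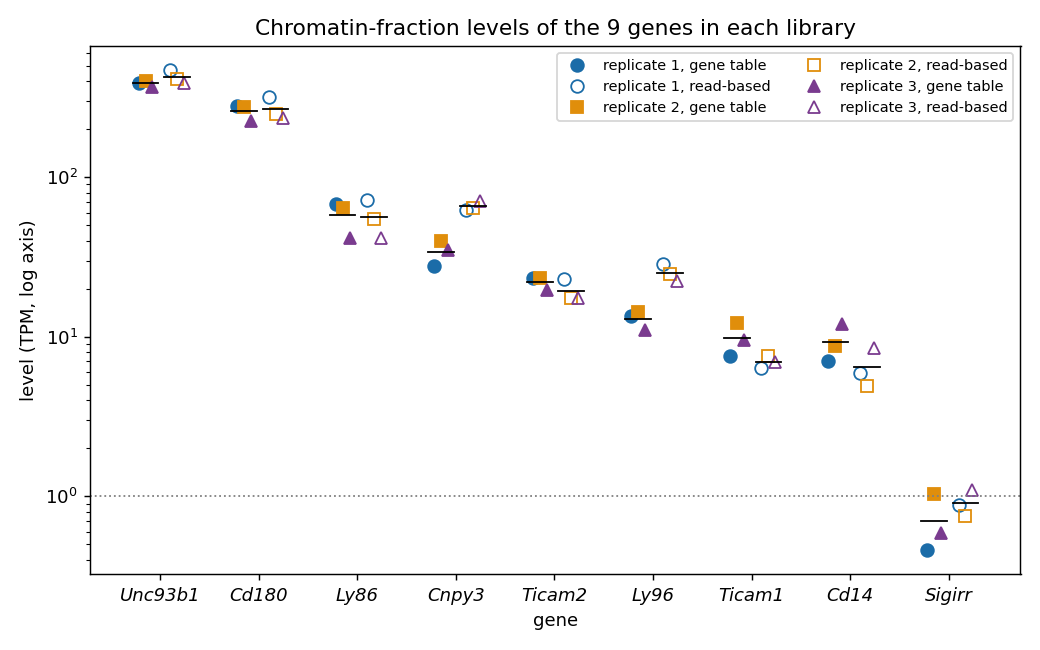
Level of each gene in each library in TPM on a log axis; filled symbols are the gene table, open symbols the read-based table, shapes and colours mark the replicates, and short lines are means of 3. Unc93b1 and Cd180 lie above 100 TPM in every library, Sigirr lies near the dotted line at 1 TPM, and the open symbols of Ly96 and Cnpy3 lie above the filled ones.

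Among the chaperones, Unc93b1 was the highest of the 9 genes. It was at 390, 402 and 366 TPM, from 4228, 5236 and 6091 counts, with a mean of 386 ± 18.1 TPM, and ranked 62 among protein-coding genes. In the gene table its coefficient of variation of 4.70% was the smallest of the 9. The median over the 7908 protein-coding genes at a mean of 5 TPM or more was 14.8%. Cnpy3 was at 27.6, 39.6 and 35.1 TPM, from 250, 381 and 429 counts, with a mean of 34.1 ± 6.08 TPM. Read-based means were 423 ± 41.5 TPM for Unc93b1 and 65.6 ± 4.30 TPM for Cnpy3. Relative to the mean, Cnpy3 thus had the smaller read-based spread. Unc93b1 exceeded Cnpy3 by a ratio of 14.1, 10.1 and 10.4 (7.55, 6.43 and 5.51 read-based) and was above each of the 12 TLR genes; it exceeded Tlr7, which encodes an RNA sensor that needs UNC93B1, by a ratio of 11.6 ± 1.47. Read-based quantification gave that last ratio as 3.29. Hsp90b1, encoding gp96, exceeded Cnpy3 by a ratio of 2.57 ± 0.80, or 1.60 read-based.

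Of the adaptor genes, Ticam2 was the higher. It was at 23.2, 23.4 and 19.7 TPM, from 744, 902 and 960 counts, with a mean of 22.1 ± 2.11 TPM. Ticam1 was at 7.61, 12.1 and 9.56 TPM, from 249, 465 and 452 counts, with a mean of 9.77 ± 2.27 TPM. The ranges of the 2 genes do not overlap, and Ticam2 exceeded Ticam1 by a ratio of 3.04, 1.93 and 2.06. Myd88, the adaptor that most TLRs share, exceeded Ticam1 by a ratio of 1.99 ± 0.35. Tirap, which bridges TLR4 to MyD88 as TRAM bridges it to TRIF, was at 4.47 ± 0.65 TPM, below Ticam2 by a ratio of 0.21 ± 0.05. In the read-based table Tirap was at 11.3 TPM and that ratio was 0.59.

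Sigirr was the lowest of the 9 genes, at 0.46, 1.04 and 0.59 TPM from 4, 16 and 13 counts. Its mean of 0.70 ± 0.30 TPM rests on few reads, and replicate 2 alone passed 1 TPM. In the read-based table it was at 0.89, 0.75 and 1.10 TPM, again near 1 TPM, but there replicate 2 was the lowest. The order of the libraries in Sigirr is therefore not resolved at this depth.

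Ordered by mean level the genes run Unc93b1, Cd180, Ly86, Cnpy3, Ticam2, Ly96, Ticam1, Cd14 and Sigirr. In 7 of the 8 neighbouring pairs the order was the same in all 3 libraries; Ticam1 exceeded Cd14 in 2 of 3. In the gene table the ranges over libraries overlap for 2 pairs, Ly96 with Ticam1 and Ticam1 with Cd14. Both genes of a pair were measured in the same library, and within each library Ly96 exceeded Ticam1, by a ratio of 1.78, 1.17 and 1.16. In the read-based table Ly96 lay wholly above both Ticam1 and Cd14. With 3 libraries the smallest p of a two-sided exact sign-flip test is 0.25, so no pair was tested. The read-based table turned 2 neighbouring pairs round, with Cnpy3 above Ly86 and Ly96 above Ticam2 in the mean.

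Among the 9 genes the 2 quantifications differed most for Ly96 and Cnpy3. Read-based levels were 28.6, 24.7 and 22.3 TPM for Ly96, a mean 1.95 times that of the gene table, and 62.1, 64.3 and 70.4 TPM for Cnpy3, a mean 1.92 times that of the gene table. Cd14 and Ticam1 went the other way, with read-based means of 6.45 and 6.96 TPM, 0.69 and 0.71 times those of the gene table. For comparison, the median of this ratio over 10877 protein-coding genes at a mean of 1 TPM or more was 1.31. The ratios of Cd14 and Ticam1 lie at percentiles 1.37 and 1.93 of those genes, and those of Ly96 and Cnpy3 at percentiles 80.8 and 80.1. In reads, the read-based table gave 3.27 times as many for Ly96 and 2.79 times as many for Cnpy3, against a median of 1.73, while Cd14 and Ticam1 had ratios of 1.19 and 1.17. The mean read-based ratios of Cd180 to Ly86 (4.89), Tlr4 (7.35) and Cd14 (44.1) and of Ticam2 to Ticam1 (2.81) moved by less than 1.5 times. The other read-based ratios given above, which involve Ly96, Cd14, Cnpy3, Tlr7 or Tirap, moved by more.

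Isoform shares, taken from the read-based transcript tables as a percentage of each gene's TPM, differed widely between the genes. Ticam1 has a single annotated isoform, and the 5 isoforms of Cd180 are all protein-coding, so neither can show a retained intron in these tables. The other 7 genes each have at least 1 retained-intron isoform. In Cnpy3 these isoforms held 79.1%, 72.5% and 78.0% of the TPM in replicates 1, 2 and 3, and in Unc93b1 72.9%, 71.2% and 70.9%. In Ticam2 they held 63.4%, 61.8% and 59.0%, and in Ly86 57.6%, 56.2% and 55.9%. All 4 of these genes were above 50% in each library. Cd14 was at 41.7%, 48.1% and 42.3%, and Ly96 at 32.5%, 39.8% and 35.9%, below 50% in each library.

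Thus 4 of the 6 genes with such an isoform and a mean of 5 TPM or more had at least 50% of their TPM there, and among all 6162 protein-coding genes that meet the same conditions the share was 44.1%. The median over those genes was 46.1%, with quartiles of 28.6% and 62.8%. Cnpy3 and Unc93b1 lie above the upper quartile, at percentiles 89.5 and 84.9, and Ticam2 lies just below it, at percentile 73.0. Ly86, Cd14 and Ly96 lie at percentiles 65.6, 46.9 and 35.7. In the alignment-based table Unc93b1, Ly86 and Cnpy3 lie at percentiles 94.9, 92.7 and 85.6 of 5483 such genes, and Ly96, Ticam2 and Cd14 at 67.7, 60.6 and 51.7, so the place of Ly86 and Ly96 depends on the table. A high retained-intron share is common in this fraction, and nascent RNA that is not yet spliced and RNA that keeps its intron cannot be told apart in these tables. Sigirr, under the 5 TPM minimum, gave 0%, 33.2% and 9.34%, too few reads for a share.

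**Figure D2:**
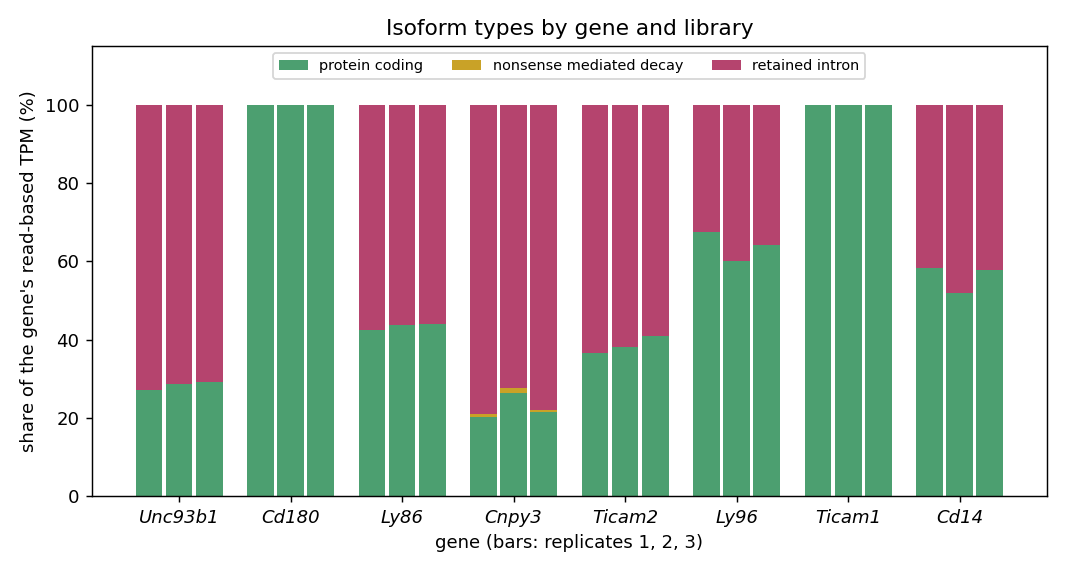
Share of each gene's read-based TPM, in percent, by annotated isoform type, with 3 bars per gene for replicates 1, 2 and 3; Sigirr is left out for lack of reads. Retained-intron isoforms hold over 50% of the TPM of Unc93b1, Ly86, Cnpy3 and Ticam2 in every library, and Cd180 and Ticam1 have no such isoform.

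Within the genes, the leading isoforms by share of TPM were the ones whose splice sites are printed above for Ly86, Unc93b1 and Cnpy3. Cnpy3-204, which begins inside intron 4, held 63.5% ± 1.97, and the full-length protein-coding Cnpy3-201 held 14.4% ± 0.65. Unc93b1-202, which ends in intron 3, held 43.1% ± 2.44, followed by the protein-coding Unc93b1-203 at 17.4% ± 1.75 and the retained-intron isoforms Unc93b1-201 at 15.6% ± 1.27 and Unc93b1-207 at 13.0% ± 0.35. Ly86-202, which ends in intron 1, held 56.6% ± 0.90 and its only companion, the protein-coding Ly86-201, the rest. Ticam2-202 held 61.4% ± 2.19. Protein-coding isoforms led for Cd14 (Cd14-201, 55.9% ± 3.53), Ly96 (Ly96-201, 61.5% ± 7.61) and Cd180 (Cd180-201, 39.4% ± 1.32). In the alignment-based transcript table Ly96-203 led instead, at 58.5%, so the leading isoform of Ly96 depends on the quantification.

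**Figure D3:**
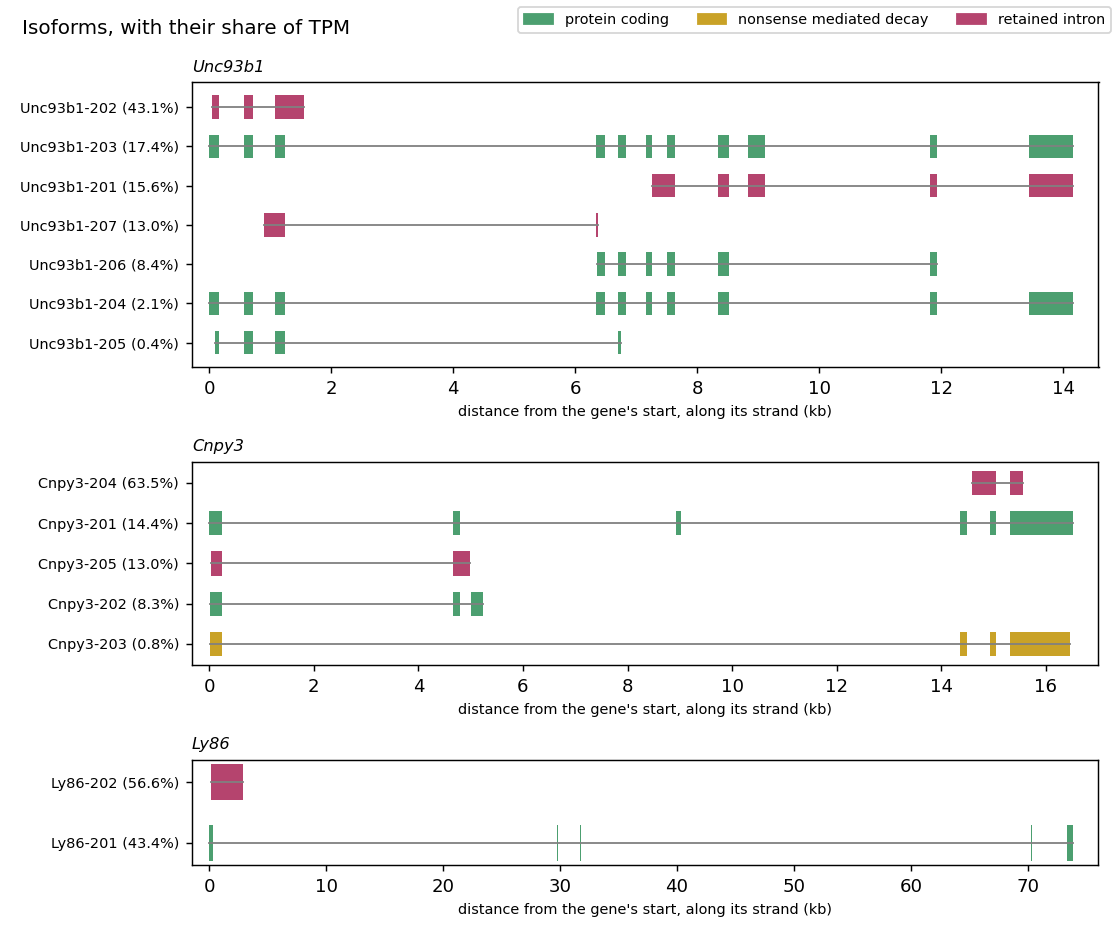
Annotated isoforms of Unc93b1, Cnpy3 and Ly86 by distance from the start of the gene in kb along its strand, with boxes for exons, colours for isoform type and the mean share of the gene's read-based TPM (n = 3) beside each name. The leading retained-intron isoforms (43.1% in Unc93b1, 63.5% in Cnpy3 and 56.6% in Ly86) each cover a short stretch of the gene.

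The leading retained-intron isoforms lie at different ends of their genes. Unc93b1-202 and Ly86-202 begin near the start of the gene, whereas Cnpy3-204 lies in the last part, as the map of isoforms shows. TPM divides reads by length, so a short isoform such as Unc93b1-202 (747 bases) or Cnpy3-204 (709 bases) takes a larger share of TPM than of reads. In reads the protein-coding Unc93b1-203 led Unc93b1-202 in every library, at 2331, 3996 and 4128 against 1814, 2491 and 2310. The protein-coding Ticam2-201 likewise led Ticam2-202, at 522, 709 and 786 reads against 408, 517 and 509. Cnpy3-204 stayed above Cnpy3-201 in reads, at 306, 526 and 626 against 237, 437 and 451. Ly86-202, at 2684 bases, is longer than the protein-coding Ly86-201 at 1134 bases, so there the share of reads exceeds the share of TPM.

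The spread between libraries was tested for each gene against the trend of all genes with edgeR's quasi-likelihood fit on expected counts. Of 14839 genes tested, 24 were more variable than the trend at a Benjamini-Hochberg adjusted p under 0.05, or 0.162%, and 862 had an unadjusted p under 0.05, or 5.81%. Of the 9 genes, 8 had enough counts to be tested and 0 passed; 1 had an unadjusted p under 0.05, and Sigirr was not tested. That gene was Ly86, at 139, 117 and 75.8 CPM (counts scaled by TMM-adjusted library size) in replicates 1, 2 and 3 (edgeR unadjusted p = 0.0254, adjusted p = 0.69). Replicate 3, the library with stromal RNA, was the low one. The 8 macrophage markers summed to 782, 1026 and 924 TPM in replicates 1, 2 and 3, and 3 of them were lowest in replicate 3. Why Ly86 was low in replicate 3 was not tested, nor was the part of the stromal RNA in that result. Cd14 was at 7.44, 7.24 and 10.6 CPM, high in replicate 3 (edgeR adjusted p = 0.99). The other 6 genes had unadjusted p-values of 0.23 to 0.83 in the edgeR fit.

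**Figure D4:**
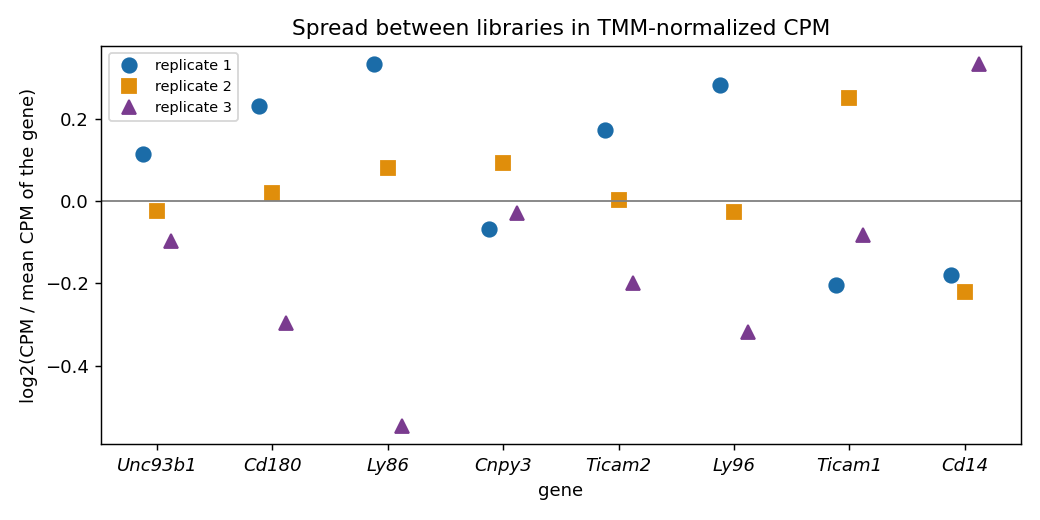
TMM-normalized CPM of the 8 tested genes in each library, as the log2 ratio to the mean CPM of the gene; shapes and colours mark the replicates. Ly86 has the widest spread, with replicate 1 high and replicate 3 low, Cd14 is the only gene with replicate 3 highest, and 0 of the 8 genes passed the test.

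Of the 9 genes, 5 had their lowest TPM in replicate 3 (Unc93b1, Cd180, Ly86, Ticam2 and Ly96), and the same 5 had their highest CPM in replicate 1. Among the protein-coding genes at a mean of 5 TPM or more, 19.4% were lowest in replicate 3, but 8 of the 12 TLR genes were too. The TLR genes and the 9 genes were counted without that minimum of 5 TPM. In CPM, 31.3% of the protein-coding genes tested were highest in replicate 1. The stromal markers, by contrast, were at their highest in replicate 3, 528 TPM in sum. Without replicate 3 no member had an unadjusted p under 0.05 in the edgeR test, and 1 had without replicate 1 or without replicate 2. Ly86 was lowest in replicate 3, so leaving that library out narrows its spread whatever the cause, which was not tested.

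Other genes of the pathway were compared as levels, list by list. Of 12 TLR genes, 9 reached 1 TPM in all libraries, with Tlr1 (117 ± 6.25 TPM), Tlr8 (44.6 ± 6.07 TPM) and Tlr7 (33.6 ± 5.08 TPM) the highest and Tlr5, the flagellin receptor, the lowest (0.09 ± 0.05 TPM). The read-based table put Tlr7 at 130.1 TPM, beside 131 TPM for Tlr1 and 64.3 TPM for Tlr8, so the level and place of Tlr7 depend on the quantification. Of 20 other genes for accessory proteins, trafficking and processing, 19 passed, led by the cathepsin gene Ctsb (440.5 ± 44.1 TPM), the endosomal nuclease gene Pld4 (405 ± 102 TPM) and the kinase gene Syk (283 ± 14.8 TPM). Lbp, whose protein carries lipopolysaccharide to CD14, was the lowest of them at 1.33 ± 0.56 TPM. Of 16 genes of the TRIF branch and its fellow adaptors, 15 passed, led by the kinase gene Ikbke (1161 ± 83.6 TPM), the interferon regulator gene Irf7 (362 ± 57.6 TPM) and the kinase gene Tbk1 (181 ± 17.6 TPM), with the adaptor gene Sarm1 at 0.04 ± 0.04 TPM. Ikbke and Tbk1, whose kinases act after TRIF, stood above Ticam1 in every library, whereas the kinase gene Ripk3, named here after its value was seen, was below it at 5.37 ± 0.96 TPM. In the read-based table Lbp was at 4.49 TPM and Sarm1 at 0.78 TPM, and Sarm1 was again the lowest of its list.

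The interleukin-1 receptor family, to which Sigirr belongs, was low in the gene table, where 1 of 7 genes, Il1rap (1.41 ± 0.12 TPM), reached 1 TPM in every library. Il1rl2 was at 0.98 ± 0.35 TPM, and Il1rl1 at 0.03, 0.03 and 1.30 TPM in replicates 1, 2 and 3, so its mean of 0.45 TPM comes from replicate 3. Il18r1 was at 0.02 ± 0.03 TPM in the gene table and at 5.04 TPM in the read-based table. Il18rap, named after its values were seen, was at 0.27 and 9.55 TPM in the gene and read-based tables, so the levels of both depend on the quantification. Median log2(TPM + 1) was 4.02 for the TLR genes, 5.46 for the accessory genes, 5.86 for the TRIF-branch genes and 0.46 for the interleukin-1 receptor family, beside 4.53 for the 9 genes.

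**Figure D5:**
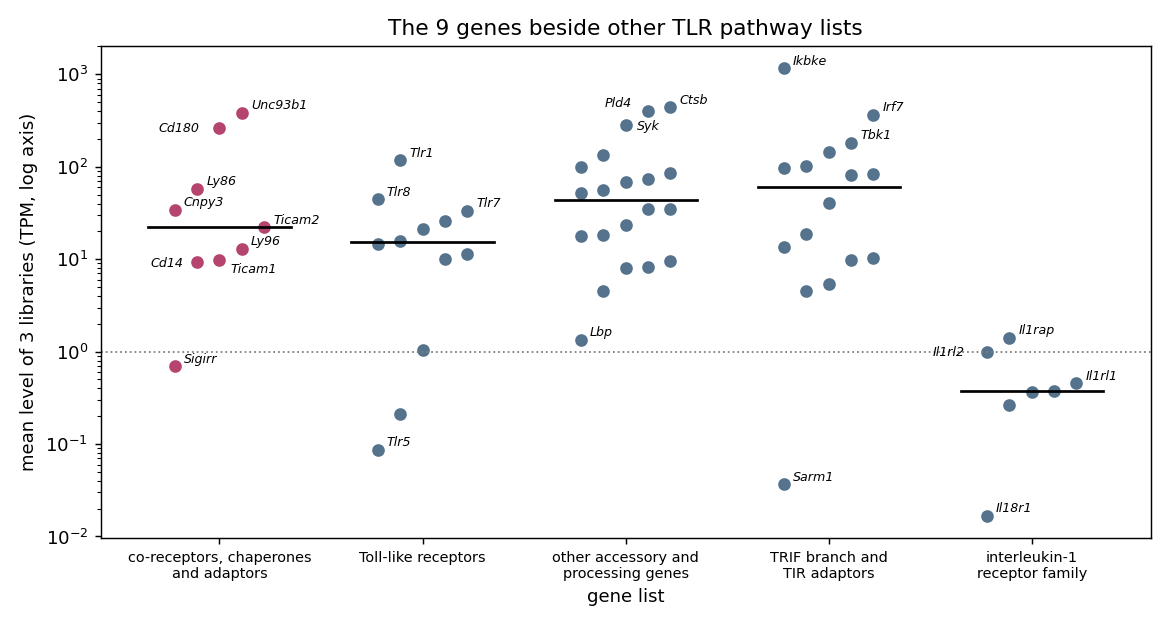
Mean TPM of 3 libraries on a log axis for the 9 genes and 4 lists of related genes; each point is a gene, the bars are list medians, and all of the 9 genes and the 3 highest and the lowest of each other list are named. The 9 genes span 0.70 to 386 TPM, and Sigirr sits among the interleukin-1 receptor family, which lies at 1.41 TPM or less in this gene table.

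The list gene whose levels over the 3 libraries lay nearest to each member, by Euclidean distance of log2(TPM + 1) among 55 candidates, was as follows. Ticam2 was nearest to Tlr13 (distance 0.21), Ticam1 to Cd36 (0.25) and Cd180 to Syk (0.26). Ly96 was nearest to Traf6 (0.26), Unc93b1 to Irf7 (0.32), Cnpy3 to Rftn1 (0.32) and Cd14 to Tmed7 (0.35). Ly86 (0.61, to Ap3b1) and Sigirr (0.70, to Il1rl2) had the largest distances to their nearest gene. With 3 libraries this distance reflects mostly the mean level.

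In mm10 coordinates of GENCODE M21, Ly96 spans 16688051 to 16709611 on chromosome 1 (plus strand), and Ly86 37345208 to 37419036 and Cd180 102693558 to 102739629 on chromosome 13 (plus strand). Unc93b1 spans 3935186 to 3949340 on chromosome 19 (plus strand), Cnpy3 46735705 to 46752214 and Ticam1 56269319 to 56276786 on chromosome 17 (minus strand), and Sigirr 141091175 to 141100572 on chromosome 7 (minus strand). Cd14 spans 36725067 to 36726798 and Ticam2 46557291 to 46574533 on chromosome 18 (minus strand).

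Of the 9 genes, 3 overlap another gene. Cd180 shares 182 of its 4509 exon bases, or 4.04%, with Mast4 on the opposite strand, and Mast4 was at 71.9 ± 10.05 TPM; no source used here says whether strand was used in counting, so reads there are uncertain. Ticam2 shares 838 of 5792 exon bases, or 14.5%, with Tmed7 on the same strand, which was at 7.94 ± 1.89 TPM, below Ticam2 in every library; strand cannot separate reads in those bases. Cnpy3 lies inside the non-coding gene Gm26904 on the opposite strand but shares 0 of its 2659 exon bases with it, and Gm26904 was at 3.16 ± 1.15 TPM.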

How the data were processed

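For each of the 3 libraries there is a table of genes and there are 2 tables of transcripts, named alignment-based and read-based. Per the README files that the authors supplied, the gene table and the alignment-based table come from reads aligned to the transcriptome (mm10, GENCODE M21) and the read-based table from fastq reads with an index. The sources used here name no aligner, version or strand setting. Expected counts, and estimated counts in the read-based table, are unnormalized, as deposited. The deposited TPM values count every row of a table and sum to 1000000 per library. Rows without a gene name took 1.31%, 0.48% and 0.24% of the counts in replicates 1, 2 and 3 and were left out of library sizes and tests.

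Members, gene lists, markers and tests were chosen with earlier results of these data known. Named are the 9 genes, Tlr4, the 3 highest genes and the lowest detected gene of each list, the list gene nearest to each member and overlapping genes; partners set in a ratio (Myd88, Tirap, Hsp90b1) and markers were added later. Levels are gene-table TPM with a pseudocount of 1 for log2; isoform shares are read-based TPM within a gene. Library spread was tested with edgeR (version 4.0.16, R 4.3.3) from expected counts, rounded to whole numbers (filterByExpr, TMM, intercept only, robust quasi-dispersion against the trend, Benjamini-Hochberg over all genes tested). On simulated libraries with 15426 genes, the test recovered 10% of genes changed 2-fold in 1 library, 92% of those changed 4-fold and 100% of those changed 8-fold. It made 13 false calls, and changes of about 2-fold were mostly missed. The simulation gave all genes the same dispersion and changed only genes at a mean of at least 50 reads, so recovery in the real libraries may differ. No pair of libraries was a duplicate (chi-square per degree of freedom 39.1 to 72.1). No source used here mentions molecular identifiers, so reads may not be independent molecules. Alternatives were the read-based table, TPM rescaled to sum over nuclear genes that are protein-coding or long non-coding, a pseudocount of 0.1, thresholds of 0.5 and 5 TPM, other filters and scalings of the edgeR fit, and leaving out each replicate. Tables and plots were made in Python 3.11.15 with pandas 2.3.3, numpy 2.4.6 and matplotlib 3.10.9.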

Additional observations from a re-analysis of the deposited data

How the results depend on the processing

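The median log2(TPM + 1) of the 9 genes, 4.53, was 4.71 with the read-based table and 5.68 with TPM rescaled to sum over nuclear genes, protein-coding or long non-coding, a scale on which each of the 9 levels is higher. It was 4.49 to 4.603 with a replicate left out. The number that reached 1 TPM in every library was 8 in each alternative but the rescaled TPM, where it was 9. With rescaled TPM, 9 of 9 mean levels moved by more than 1 SD, and 6 of 9 did so with read-based values. None of the 27 mean levels with a replicate left out did so. The alignment-based transcript table moved 6 of 9 leading-isoform shares and 7 of 9 non-coding shares by more than 1 SD, and put 5 genes, not 4, at 50% or more in retained-intron isoforms, Ly96 being added.

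In the edgeR test 0 of the 9 genes passed in each of the alternatives run, the smallest adjusted p of a member being 0.33 to 0.98. The calls among all genes numbered 677 with no filter, 180 at a mean of at least 50 reads, 36 with median-ratio size factors, 25 with read-based counts, 1 among nuclear protein-coding genes, 0 without robust estimation (a setting added after seeing the data), and 38, 0 and 78 without replicates 1, 2 and 3. No paired analysis was possible because the study has 1 group. Low counts limit the levels of Sigirr (4 to 16 expected counts) and Ly96 (70 to 77).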
